A study of Mus musculus with 24 samples.

Results

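Lysosomal hydrolases and membrane proteins were followed across monocyte subsets, treatment and genotype in mouse blood. The set holds 50 genes, taken by gene name from the 53715 genes of the deposited table. Of these, 49 have a row (Arsb has none of that name and was not analysed here), and 47 were tested among the 11230 genes whose value reached 50 in any of the 24 libraries. Cd63 and Atp6v0d2 stayed below that level and were not tested. By role, the 50 genes are 9 membrane proteins, channels and transporters, 11 glycosidases and enzymes of glycoprotein breakdown, 5 sulfatases, 5 lipid and protein hydrolases, 4 activator and soluble binding proteins, 4 nucleases and phosphatases, 3 sorting receptors, 7 subunits or accessory proteins of the V-ATPase and 2 transcription factors.

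Lysosomes break down proteins, glycans, lipids and nucleic acids with acid hydrolases, which work at the low pH that the V-ATPase, a proton pump, keeps up. Most of these enzymes receive a mannose 6-phosphate tag in the Golgi and are carried to endosomes by the receptors M6pr and Igf2r. TFEB and TFE3 are transcription factors that bind the CLEAR element, a palindrome around CACGTG near many lysosomal genes. Monocytes and macrophages use lysosomes to degrade what they take up.

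RNA-sequencing was done on monocytes sorted from peripheral blood of C57BL/6 mice aged 8 to 10 weeks. Mice were wt littermate controls or N2ΔMy, in which Lyz2Cre, active in myeloid cells, deletes the floxed Notch2 alleles (Notch2lox/lox). They received Sham cream, or 50 mg per day of Aldara, a cream with 5% imiquimod (IMQ, a TLR7 agonist), for 4 to 5 days, and cells were sorted on day 5. The 6 groups of 4 libraries are Ly6Chi cells after Sham, Ly6Chi cells after IMQ and Ly6Clo cells after IMQ, each from wt and from N2ΔMy mice. All cells were sorted as Lin-CD11b+CD115+ and GFP+ (Lin-, without surface markers of T, B, NK and erythroid cells and without the neutrophil marker Ly6G), so the controls carried the Cx3cr1GFP reporter too, and MHC-II+ cells were gated out. Whether the controls carried Cre, and how many mice stand behind a library, is not given in the sources used here, so p-values measure the spread between these libraries. Values in the 4 libraries of a group are given in the order of replicates 1 to 4.

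Notch2, the targeted gene, lay between 12656 and 20005 in the wt libraries and between 7240 and 11518 in the N2ΔMy libraries, with no overlap within any subset and treatment. The value covers the whole gene, so transcripts that lack only the floxed part would still count. Lyz2, the gene whose altered allele carries Cre, lay at 169977 to 234527 in wt and at 100067 to 137199 in N2ΔMy Ly6Chi Sham cells. After IMQ it lay at 114186 to 179470 against 76632 to 124199 in Ly6Chi cells. In Ly6Clo cells Lyz2 went the other way, at 28980 to 47456 against 38976 to 54580. The part of Lyz2 in the genotype differences was not tested. The monocyte genes Csf1r and Itgam were high in every library, while T cell markers summed to at most 4 and NK cell markers to at most 64. The values are normalized counts, and the steps between them put the depth at 9523728 to 19754712 reads per library. Replicates 1 and 2 carry lower library numbers than replicates 3 and 4, and this library series took up 59.5% of the variance within groups over the tested genes. Any such split of the replicates takes up part of this variance, also without a series effect. N2ΔMy Ly6Clo replicate 3 stood apart with a summed level of 1450 for 4 dendritic cell markers (lowest of its group 205). In wt Ly6Clo cells replicate 3 had the highest sums of its group, 485 for these and 1912 for 6 Ly6Chi markers (lowest 80 and 547). In Ly6Chi Sham cells the 4 dendritic cell markers summed to 531 to 832 in wt and to 580 to 1009 in N2ΔMy mice, most of it Flt3. Replicate 4 of each IMQ group held the globin gene Hbb-bs at 458 or more, against at most 158 elsewhere.

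Promoter windows from RefSeq (GRCm38.p6, 250 bases before to 50 after a start site) matched 40 of the 49 members by symbol. CACGTG, which reads the same on both strands, was found in the windows of 10 members (25%), against 12.3% of the 7744 tested genes with a window and 7.15% of all 32851 windows. The 10 were Arsa, Atp6v0d1, Atp6v1a, Gaa, Gla, Glb1, Igf2r, Lamp1, Mcoln1 and Sgsh. The longer TCACGTGA, which contains it, was found in Atp6v0d1, Atp6v1a, Gla, Igf2r and Mcoln1 (12.5% of the members with a window) and in 2.45% of the tested genes and 0.974% of all windows. A match describes the letters in the window and is not a binding site. The bases upstream of both the RefSeq start site and the deposited gene model are shown for Igf2r and Acp5, which had the widest range over the groups, for Lamp1, whose window held 4 copies, and for Gla, which passed the test in 4 comparisons. Igf2r is chr17:12769707-12769956 and Acp5 is chr9:22135747-22135996, both on the minus strand, Lamp1 is chr8:13158911-13159160 on the plus strand and Gla is chrX:134601126-134601255 on the minus strand. Each is written 5′ to 3′ toward its gene, with CACGTG in capitals.
Igf2r: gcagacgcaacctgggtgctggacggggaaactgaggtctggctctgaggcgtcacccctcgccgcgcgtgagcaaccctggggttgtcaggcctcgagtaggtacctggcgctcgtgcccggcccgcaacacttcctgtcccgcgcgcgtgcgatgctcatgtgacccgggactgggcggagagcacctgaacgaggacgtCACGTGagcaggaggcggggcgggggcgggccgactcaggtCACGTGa
Acp5: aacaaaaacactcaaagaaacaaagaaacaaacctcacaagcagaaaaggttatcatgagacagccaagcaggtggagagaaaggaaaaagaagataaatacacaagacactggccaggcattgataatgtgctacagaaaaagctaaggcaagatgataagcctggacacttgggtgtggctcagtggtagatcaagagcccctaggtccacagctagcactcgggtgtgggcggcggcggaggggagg
Lamp1: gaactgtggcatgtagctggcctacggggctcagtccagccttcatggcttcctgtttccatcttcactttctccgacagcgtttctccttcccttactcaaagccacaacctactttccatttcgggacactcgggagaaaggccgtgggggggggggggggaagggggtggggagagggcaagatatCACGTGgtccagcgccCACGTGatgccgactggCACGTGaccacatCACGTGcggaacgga
Gla: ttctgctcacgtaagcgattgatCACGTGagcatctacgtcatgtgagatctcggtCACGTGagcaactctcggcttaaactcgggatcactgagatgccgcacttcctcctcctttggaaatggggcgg
The stretch of Lamp1 holds 4 copies, those of Igf2r and Gla hold 2 each, and that of Acp5 holds 0.

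Levels were compared between genes as the normalized count per kb of gene model. Psap, the precursor of the saposins that help hydrolases reach lipids, ranked first in all 6 groups, with a mean level of 23226 per kb in wt Ly6Chi Sham cells and 10936 per kb in N2ΔMy Ly6Clo cells. The membrane glycoprotein Lamp1 came second in each Ly6Chi group, at 3660 to 4346 per kb. In Ly6Clo cells Laptm5, a lysosomal transmembrane protein of blood cells, came second, at 4557 per kb in wt and 4395 per kb in N2ΔMy cells. The lowest tested member was Igf2r in Sham cells, at 3.28 per kb in wt and 3.44 per kb in N2ΔMy cells. Cd63, a tetraspanin of late endosomes, reached 11 at most in any library. Its level is uncertain, since 25.9% of the 75-base windows of its longest protein-coding transcript also occur in the pseudogene Cd63-ps. Atp6v0d2, a V-ATPase subunit known from osteoclasts, reached 9 at most and was listed at 0 in all 8 Sham libraries and all 4 wt Ly6Chi IMQ libraries.

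Over the 6 groups, most members moved little. The ratio of the highest to the lowest group mean had a median of 1.53 over the 47 members, against 1.60 over all tested genes, and it was under 2 for 87.2% of the members and 68.8% of all tested genes. The ratio was 63.7 for Igf2r and 49.8 for Acp5, then 5.69 for Npc2, 3.05 for Acp2, 3.00 for Psap and 2.20 for Pld3. In limma's F-test over the 6 groups, 29 of the 47 members passed an adjusted p of 0.01, against 43% of all tested genes. Cd68, which marks macrophages and monocytes, was among the 18 that did not pass (adjusted p = 0.34). Its lowest and highest values over the 24 libraries were 3311 and 5791.

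**Figure D1:**
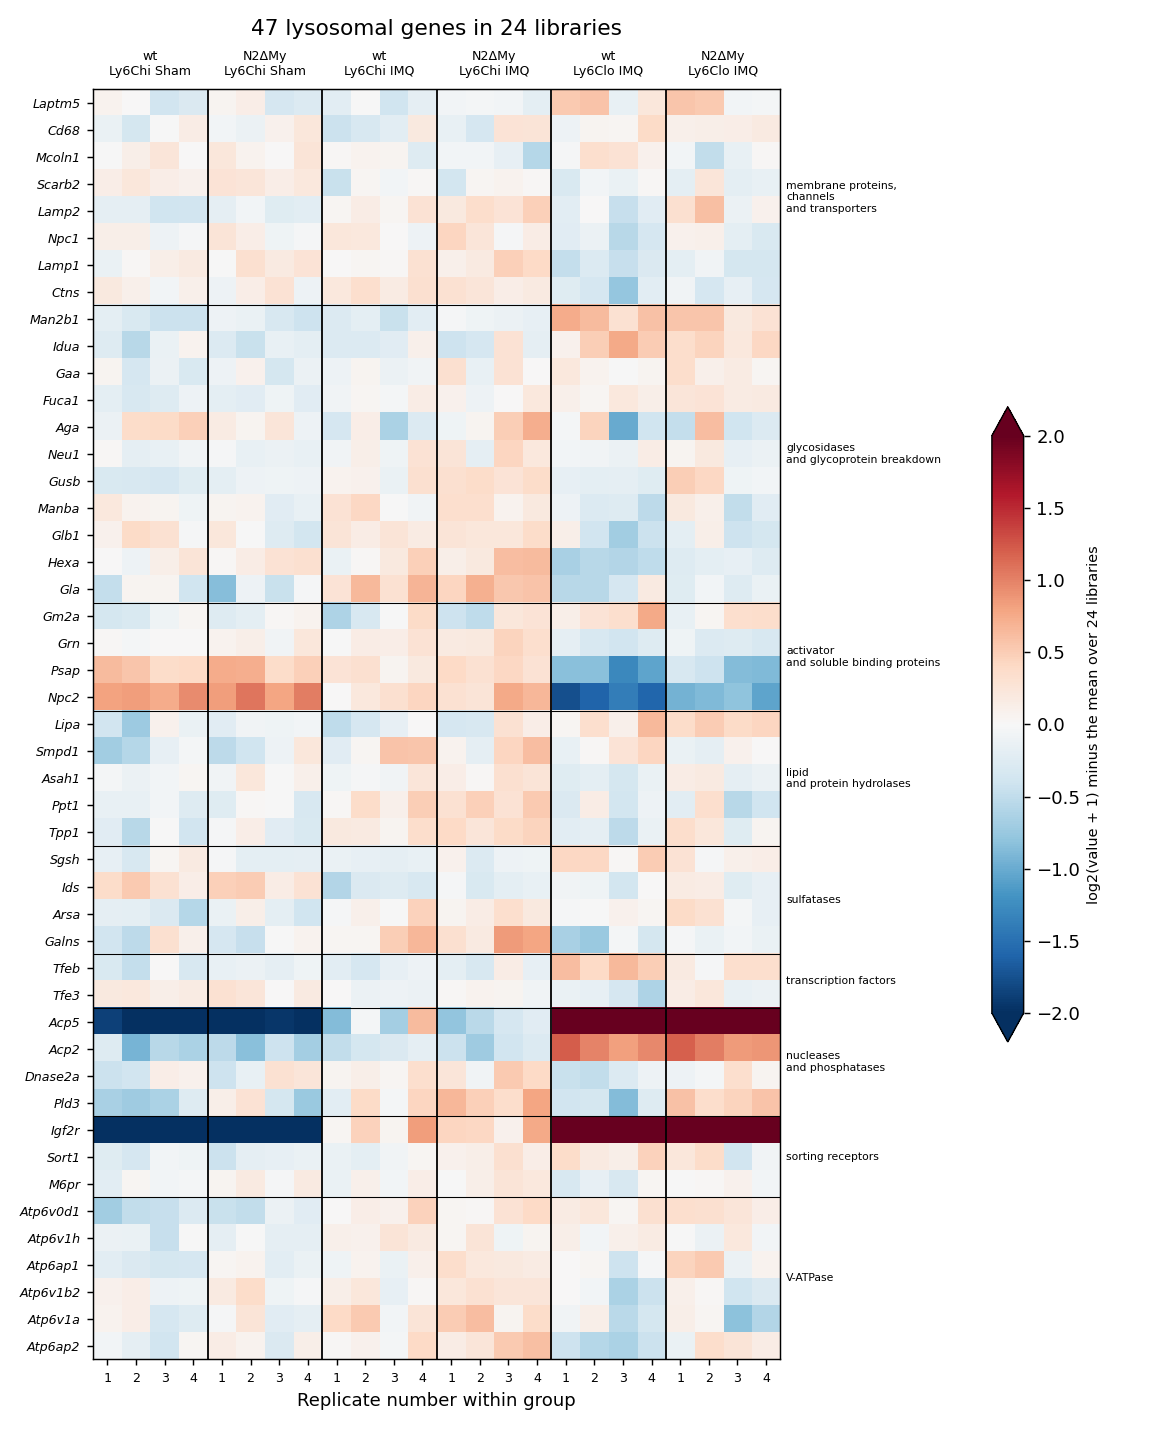
Levels of 47 lysosomal genes (rows, grouped by role) in the 24 libraries (columns, by group), as log2(value + 1) minus the gene's mean over the libraries, with the color scale clipped at −2 and 2. Igf2r and Acp5 are lowest in the 8 Sham libraries and highest in the 8 Ly6Clo libraries, Npc2 and Psap are lowest in the Ly6Clo libraries, and most other genes stay near their mean.

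The first comparison asks how Ly6Clo and Ly6Chi cells differed after IMQ. In wt mice, Igf2r and the acid phosphatases Acp5 and Acp2 were higher in Ly6Clo cells, with the mannosidase Man2b1, the iduronidase Idua and Tfeb, while the lipid binding protein Npc2, Psap, Gla, Galns, Hexa, Ctns, Atp6ap2 and Pld3 were lower. A gene was called at an adjusted p of at most 0.05 in limma with a log2 fold change of at least 0.6 in size, on the log2(value + 1) scale. By this rule 14 of 47 members were called, 6 higher and 8 lower, against 24.6% of all tested genes (11.9% higher and 12.7% lower). At any fold, 10 were higher and 18 lower at the same adjusted p, against 35.6% of all tested genes. The groups did not overlap for 27 members, against 35.4% of all tested genes. In N2ΔMy mice 10 of 47 were called, 3 higher and 7 lower, against 17.4% of all tested genes (9.01% higher and 8.38% lower). At any fold, 6 were higher and 12 lower, against 24.9%, and 15 members did not overlap, against 27.8%. The median log2 fold change of the members was −0.11 in wt and −0.13 in N2ΔMy mice, and that of all tested genes was −0.0073 and −0.0051. Both comparisons called Igf2r, Acp5 and Acp2 higher and Npc2, Psap, Gla, Galns and Hexa lower, which is 8 of the 14 and 8 of the 10. In bulk samples, fewer cells of a type and less RNA per cell cannot be told apart. Sums of 8 macrophage markers were 5791 to 8268 in N2ΔMy Ly6Chi IMQ and 12895 to 17253 in N2ΔMy Ly6Clo cells. In wt mice they were 3854 to 5258 and 5592 to 7396. Sums of 8 neutrophil markers went from 5067 to 7291 down to 1902 to 2669 in N2ΔMy mice, and from 4773 to 7099 down to 2907 to 3913 in wt mice. The part of these markers in the subset differences was not tested.

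Among the sorting receptors, Igf2r (chr17:12682406-12769664, minus strand, GRCm38), which carries tagged hydrolases to endosomes and also takes up IGF2, stood at 279, 372, 282 and 485 in wt Ly6Chi IMQ cells and at 2316, 1876, 1819 and 1894 in wt Ly6Clo cells. In N2ΔMy mice it stood at 366, 361, 287 and 456 in Ly6Chi IMQ cells and at 2206, 2386, 1106 and 1708 in Ly6Clo cells. The lowest Ly6Clo library lay above the highest Ly6Chi library by a wide margin in both genotypes. Mean levels differed 5.57-fold in wt mice, and the log2 fold change was 2.51 ± 0.17 (SE, n = 4 and 4, adjusted p = 2.1e-06) in wt and 2.29 ± 0.23 (adjusted p = 3.33e-05) in N2ΔMy mice. M6pr, the other mannose 6-phosphate receptor, had log2 fold changes of −0.21 and −0.13 and was not called. Sort1, which sorts prosaposin among other proteins, passed the adjusted p in wt mice (0.37, adjusted p = 0.0143) below the fold limit, and had −0.13 (adjusted p = 0.576) in N2ΔMy mice.

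Of the phosphatases, Acp5 (chr9:22126727-22135711, minus strand), the tartrate-resistant acid phosphatase, stood at 250, 448, 285 and 715 in wt Ly6Chi IMQ cells and at 3703, 4366, 2661 and 4262 in wt Ly6Clo cells. In N2ΔMy mice the values were 266, 316, 365 and 394 in Ly6Chi and 3220, 3801, 2881 and 2813 in Ly6Clo cells. The subsets were far apart in both genotypes, and replicate 4 was the highest Ly6Chi library in each. The log2 fold change was 3.24 ± 0.29 (adjusted p = 1.3e-05) in wt mice, an 8.83-fold difference of means, and 3.25 ± 0.14 (adjusted p = 3.13e-07) in N2ΔMy mice. Acp2 (chr2:91202885-91214098, plus strand), the lysosomal acid phosphatase, stood at 514, 567, 596 and 640 in wt Ly6Chi and at 1690, 1440, 1287 and 1417 in wt Ly6Clo cells. In N2ΔMy mice its values were 539, 443, 559 and 604 against 1670, 1478, 1306 and 1337. The subsets did not overlap, with log2 fold changes of 1.33 ± 0.11 (adjusted p = 7.41e-06) and 1.43 ± 0.13 (adjusted p = 1.35e-05). An antisense gene, Ddb2, covers 12.6% of the exon bases of Acp2, but its highest value in any library was 78. Pld3, an endolysosomal exonuclease, was just called in wt mice (−0.60 ± 0.20, adjusted p = 0.0334) and lost the call when any one of 5 libraries was left out (wt Ly6Chi IMQ replicates 2 and 4, and wt Ly6Clo replicates 1, 2 and 3), with values from −0.72 to −0.47 over all single omissions. Of these, wt Ly6Clo replicate 3 is the library with more dendritic cell and Ly6Chi markers, and its markers' part was not tested.

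The activator and binding proteins held the largest falls. Npc2 (chr12:84754562-84773152, minus strand), which hands cholesterol to Npc1, stood at 3667, 4242, 4547 and 4946 in wt Ly6Chi IMQ cells and at 1086, 1206, 1397 and 1222 in wt Ly6Clo cells. In N2ΔMy mice it stood at 4536, 4390, 6210 and 5772 in Ly6Chi and at 1898, 1989, 2095 and 1767 in Ly6Clo cells. Every Ly6Clo library lay below every Ly6Chi library, and the log2 fold change was −1.82 ± 0.11 (adjusted p = 1.28e-06) in wt and −1.42 ± 0.13 (adjusted p = 1.44e-05) in N2ΔMy mice. Psap (chr10:60277627-60302597, plus strand) stood at 54753, 56733, 46901 and 51665 in wt Ly6Chi and at 25276, 25515, 18472 and 21755 in wt Ly6Clo cells. Its values in N2ΔMy mice were 59424, 55818, 60077 and 55284 against 36310, 34181, 24867 and 24671. Again the subsets did not overlap, with log2 fold changes of −1.22 ± 0.13 (adjusted p = 4.56e-05) and −0.96 ± 0.15 (adjusted p = 0.000843). Grn, the progranulin gene, ranged from 7976 to 9762 in wt Ly6Chi and from 6123 to 7060 in wt Ly6Clo cells, and passed the adjusted p in both genotypes below the fold limit (−0.43 and −0.52, adjusted p = 0.00392 and 0.00284). Gm2a, the activator of ganglioside breakdown by Hexa, had 0.51 (adjusted p = 0.0719) in wt and 0.25 (adjusted p = 0.397) in N2ΔMy mice.

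The glycosidases went both ways. Man2b1 (chr8:85083270-85098282, plus strand), the lysosomal alpha-mannosidase, stood at 7398, 7812, 6543 and 7748 in wt Ly6Chi IMQ cells and at 14971, 13925, 11030 and 13465 in wt Ly6Clo cells, a log2 fold change of 0.85 ± 0.11 (adjusted p = 0.000178). In N2ΔMy mice the values were 8834, 8393, 8232 and 7958 against 13101, 13138, 10202 and 10862, which gave 0.49 (adjusted p = 0.0069) and no call. The subsets did not overlap in either genotype. Gla (chrX:134588149-134601125, minus strand), alpha-galactosidase A, stood at 142, 184, 144 and 187 in wt Ly6Chi and at 79, 79, 92 and 132 in wt Ly6Clo cells (−0.80 ± 0.21, adjusted p = 0.0133). In N2ΔMy mice Gla stood at 157, 192, 171 and 174 against 99, 113, 98 and 106 (−0.73 ± 0.16, adjusted p = 0.00612). Here too the lowest Ly6Chi library lay above the highest Ly6Clo library. Hexa, the alpha subunit of hexosaminidase, stood at 2642, 2932, 3326 and 4009 in wt Ly6Chi and at 1836, 1977, 1926 and 2045 in wt Ly6Clo cells (−0.71 ± 0.12, adjusted p = 0.00101). In N2ΔMy mice it stood at 3135, 3302, 4455 and 4470 against 2411, 2536, 2585 and 2416 (−0.61 ± 0.13, adjusted p = 0.00529). This call lay just past the fold limit and was lost without N2ΔMy Ly6Chi IMQ replicate 3 or 4 or N2ΔMy Ly6Clo replicate 1 or 4 (nearest to 0, −0.53) and under both other scalings (−0.60 and −0.59). Idua, the iduronidase of glycosaminoglycan breakdown, was called in wt mice (0.63 ± 0.16, adjusted p = 0.00972) although the groups overlapped, and the call was lost without wt Ly6Chi IMQ replicate 1 or 2 or wt Ly6Clo replicate 3 (lowest value 0.53).

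Of the 4 tested sulfatases, Galns, which removes sulfate from keratan and chondroitin sulfate, was called lower in Ly6Clo cells of both genotypes. It stood at 789, 786, 1077 and 1217 in wt Ly6Chi IMQ cells and at 487, 459, 743 and 598 in wt Ly6Clo cells (−0.76 ± 0.19, adjusted p = 0.00881). In N2ΔMy mice it stood at 957, 871, 1389 and 1321 against 753, 697, 742 and 702 (−0.62 ± 0.15, adjusted p = 0.0118), a call lost without Ly6Chi IMQ replicate 3 or 4 (−0.51 and −0.54). The subsets did not overlap, and in both genotypes replicates 3 and 4 were the highest Ly6Chi libraries. Sgsh, the heparan sulfamidase, passed the adjusted p in wt mice, below the fold limit (0.49, adjusted p = 0.00629). Of the 5 lipid and protein hydrolases, Ppt1, a thioesterase that removes palmitate from proteins, was called in N2ΔMy mice (−0.60 ± 0.17, adjusted p = 0.023) with overlapping groups, and fell just under the fold limit under both other scalings (−0.59). The antisense gene Cap1, with a mean of 12490 over the libraries, shares 3.51% of the exon bases of Ppt1, and the strand setting of the counting is not given in the sources used here, so the level of Ppt1 is uncertain. Lipa, the acid lipase of cholesteryl ester breakdown, had 0.53 (adjusted p = 0.0185) in wt and 0.48 (adjusted p = 0.0323) in N2ΔMy mice, below the fold limit.

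Of the 8 tested membrane proteins, Ctns, the cystine exporter, was called lower in wt mice (−0.65 ± 0.15, adjusted p = 0.00547), and the call was lost without wt Ly6Clo replicate 3 (−0.52). Lamp1 stood at 9532, 9767, 9645 and 11649 in wt Ly6Chi IMQ cells and at 6783, 7799, 6884 and 7725 in wt Ly6Clo cells, which did not overlap, with a log2 fold change of −0.47 (adjusted p = 0.0034) below the fold limit. Lamp2 ranged from 3855 to 4583 in wt Ly6Chi and from 2723 to 3767 in wt Ly6Clo cells (−0.35, adjusted p = 0.0273). Mcoln1, a calcium channel of the lysosome, ranged from 423 to 532 in wt Ly6Chi and from 497 to 637 in wt Ly6Clo cells, which overlapped (0.19, adjusted p = 0.253). Of the 6 tested V-ATPase members, Atp6ap2, an accessory protein of the pump, was called lower in wt mice (−0.63 ± 0.12, adjusted p = 0.00239), and the call was lost without wt Ly6Chi IMQ replicate 4 or wt Ly6Clo replicate 3 (value nearest 0, −0.53). Atp6v1a, the catalytic subunit, was called lower in N2ΔMy mice (−0.70 ± 0.21, adjusted p = 0.0295) with overlapping groups, and differed between the library series in all 6 groups (mean −0.45 on the log2 scale, replicates 3 and 4 against 1 and 2). N2ΔMy Ly6Clo replicate 3 had the highest sum of dendritic cell markers. Without it Ppt1 and Atp6v1a lost their calls, and 8 members were called, against 1929 of all 11230 tested genes. Without N2ΔMy Ly6Chi IMQ replicate 4 the count was 6, against 1702 of all tested genes, where all libraries gave 10 and 1953.

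Tfeb (chr17:47737030-47792419, plus strand) stood at 1160, 1074, 1202 and 1251 in wt Ly6Chi IMQ cells and at 2059, 1787, 2111 and 1898 in wt Ly6Clo cells. The subsets did not overlap, and the log2 fold change was 0.74 ± 0.09 (adjusted p = 0.000108). In N2ΔMy mice Tfeb stood at 1177, 1078, 1496 and 1207 against 1535, 1326, 1700 and 1697, which overlapped (0.34, adjusted p = 0.0722). Tfe3 stood at 1418, 1296, 1309 and 1292 against 1281, 1261, 1117 and 916 in wt mice (−0.23, adjusted p = 0.151). In N2ΔMy mice Tfe3 was at 1425, 1479, 1455 and 1341 against 1553, 1638, 1272 and 1302 (0.01, adjusted p = 0.966). The subset difference itself was compared between the genotypes by an interaction term, which called 0 of 47 members, against 1.03% of all tested genes. At an unadjusted p under 0.05 were 6 members, against 8.33% of all tested genes: Tfeb (−0.40), Man2b1 (−0.36), Sort1 (−0.50), Npc2 (0.40), Pld3 (0.52) and Atp6ap2 (0.40), and the smallest adjusted p was 0.368 (Sort1).

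**Figure D2:**
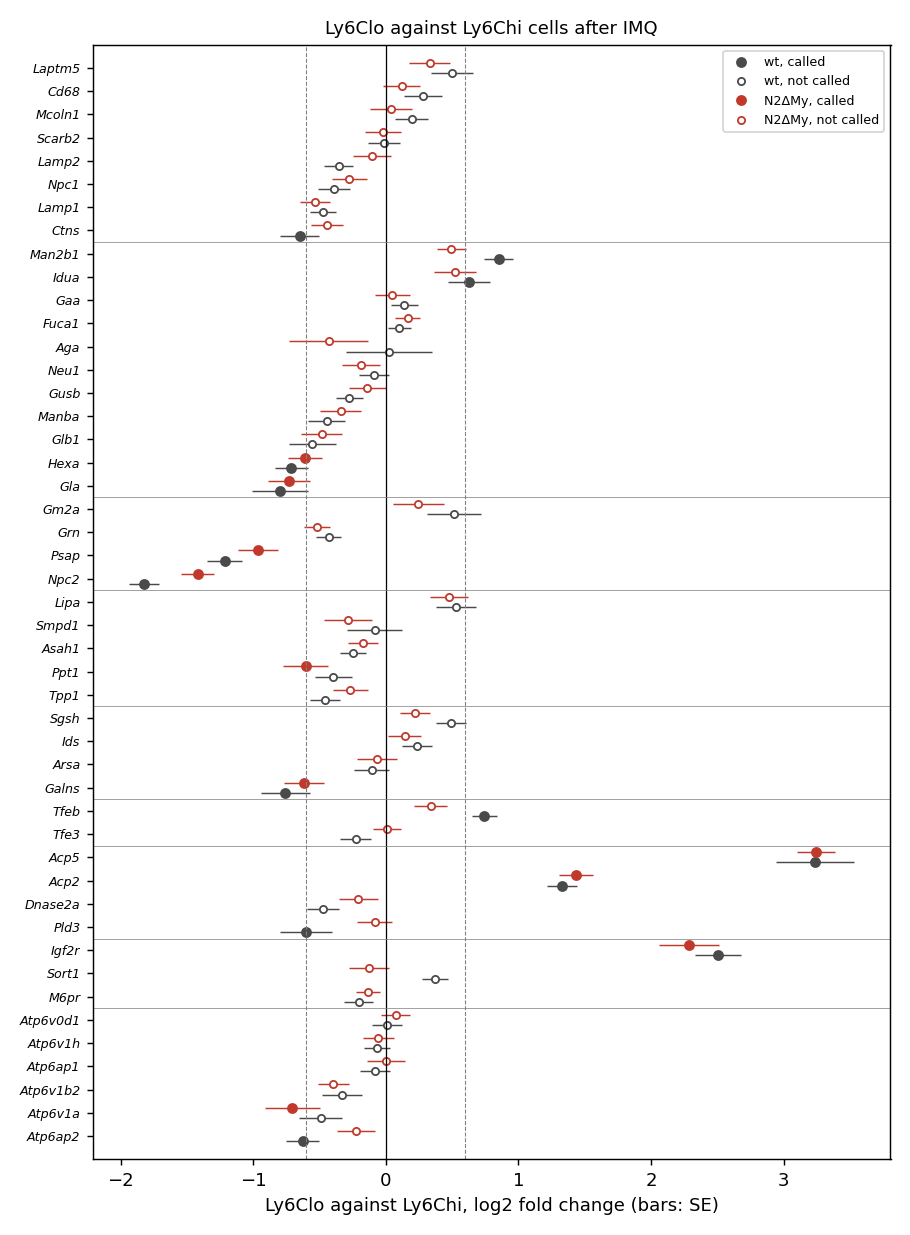
Log2 fold change of each tested member between Ly6Clo and Ly6Chi cells after IMQ in wt and N2ΔMy mice, on the log2(value + 1) scale, with standard errors as bars, filled points for called members and dashed lines at −0.6 and 0.6. Acp5, Igf2r and Acp2 lie farthest to the higher side in both genotypes (3.24, 2.51 and 1.33 in wt mice), Npc2 and Psap farthest to the lower side.

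A list of 96 further lysosomal genes, written with results of these data known, gave 88 tested genes. In wt mice 9 of them were called higher and 17 lower in Ly6Clo cells, against 11.9% and 12.7% of all tested genes, and in N2ΔMy mice 8 were higher and 8 lower, against 9.01% and 8.38%. The tetraspanin Cd9 had mean levels of 88.8 in Ly6Chi and 1041 in Ly6Clo cells of wt mice (log2 fold change 3.47, adjusted p = 7.67e-06) and 3.39 in N2ΔMy mice. Smpdl3b, a phosphodiesterase related to acid sphingomyelinase, rose by 1.75 in wt mice (adjusted p = 7.41e-06). Tfec, a transcription factor of the TFEB family, had a mean of 149 in wt Ly6Chi IMQ cells and of 1 in wt Ly6Clo cells, and was called lower in both genotypes. Slc37a2 (−1.99, adjusted p = 0.00348) and the nucleoside transporter Slc29a3 (−1.65, adjusted p = 8.05e-06) were the next largest falls in wt mice. In N2ΔMy mice the endolysosomal channel Tpcn2 (1.80, adjusted p = 0.000381) and the metal transporter Slc11a1 (1.51, adjusted p = 3.21e-06) rose, and Slc29a3 (adjusted p = 0.000163) and Scpep1 (−1.06, adjusted p = 0.000526) fell.

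The second comparison asks what IMQ changed in Ly6Chi cells. Igf2r and Acp5 rose most in both genotypes, and Gla was called higher in both. Ids, a sulfatase of heparan and dermatan sulfate, was called lower in wt mice only. In wt mice 6 of 47 members were called, 5 higher (Igf2r, Acp5, Pld3, Gla and Atp6v0d1) and 1 lower (Ids), against 9.49% of all tested genes (4.43% higher and 5.07% lower). Without wt Ly6Chi Sham replicate 1 the count was 3, against 932 of the 11230 tested genes, and in replicates 3 and 4 alone it was 3, against 592, where all libraries called 1066 genes. At any fold, 10 were higher and 3 lower at the adjusted p of 0.05, against 15.6%. In N2ΔMy mice 4 were called, all higher (Igf2r, Acp5, Gla and Galns), against 8.7% of all tested genes (4.15% higher and 4.55% lower), and 3 members were called in both. In replicates 3 and 4 alone 7 were called in N2ΔMy mice, against 813 of all tested genes. At any fold, 10 were higher and 1 lower, against 13.7%. The groups did not overlap for 18 members in wt mice (21.5% of all tested genes) and 17 in N2ΔMy mice (19.5%). The log2 fold change was above 0 for 37 of 47 members in wt and 39 in N2ΔMy mice, against 51.5% and 50.6% of all tested genes, with medians of 0.09 and 0.20 against 0.014 and 0.0052. These comparisons use the Ly6Chi IMQ libraries that also enter the comparison of subsets.

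Igf2r stood at 26, 43, 46 and 9 in wt Sham cells and at 279, 372, 282 and 485 after IMQ. In N2ΔMy mice it stood at 32, 38, 27 and 33 after Sham and at 366, 361, 287 and 456 after IMQ. No Sham library came near an IMQ library, mean levels differed 11.4-fold in wt and 11.3-fold in N2ΔMy mice, and the log2 fold change was 3.66 ± 0.44 (adjusted p = 0.000438) and 3.45 ± 0.20 (adjusted p = 1.68e-05). Acp5 stood at 125, 55, 103 and 83 in wt Sham cells and at 250, 448, 285 and 715 after IMQ. In N2ΔMy mice Acp5 stood at 76, 66, 118 and 41 after Sham and at 266, 316, 365 and 394 after IMQ. The groups did not overlap, with log2 fold changes of 2.14 ± 0.34 (adjusted p = 0.00207) and 2.22 ± 0.29 (adjusted p = 0.000867). Without replicate 4 of the IMQ group, the library with Hbb-bs, Acp5 had 1.84 and Igf2r 3.50 in wt mice, and Acp5 had 2.14 and Igf2r 3.34 in N2ΔMy mice. Ly6Clo marker genes, 8 in all, summed to 31180 to 34836 in wt Ly6Chi Sham and to 29823 to 43803 in wt Ly6Chi IMQ cells, and to 23471 to 28717 and 21780 to 31994 in N2ΔMy mice. Among them the mean of Spn rose with IMQ, from 4765 to 8349 in wt and from 4113 to 5752.5 in N2ΔMy mice, without overlap. Means of Cd36 fell from 127 to 54.5 and from 270.5 to 144, and those of Cx3cr1 from 3374 to 2110 and from 4128 to 2676. The 8 neutrophil markers summed to 5533 to 6290 after Sham and 4773 to 7099 after IMQ in wt mice, and to 4793 to 5397 and 5067 to 7291 in N2ΔMy mice, most of it Csf3r. Within this list S100a8 went from at most 12 in every Sham library to 545 to 3257 after IMQ in wt and 402 to 3443 in N2ΔMy mice, highest in replicate 4, and Elane from means of 0.75 and 0.25 to 21.8 and 19.8, while Ly6g, whose protein Ly6G the Lin- gate removes, was at 0 in all 8 Ly6Chi IMQ libraries. The 4 dendritic cell markers summed to 531 to 832 after Sham and 267 to 485 after IMQ in wt mice. In N2ΔMy mice they summed to 580 to 1009 and 295 to 408. The 8 macrophage markers summed to 5601 to 6212 and 3854 to 5258 in wt mice, and to 6788 to 7366 and 5791 to 8268 in N2ΔMy mice. The part of all these markers in the rise of Igf2r and Acp5 was not tested.

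**Figure D3:**
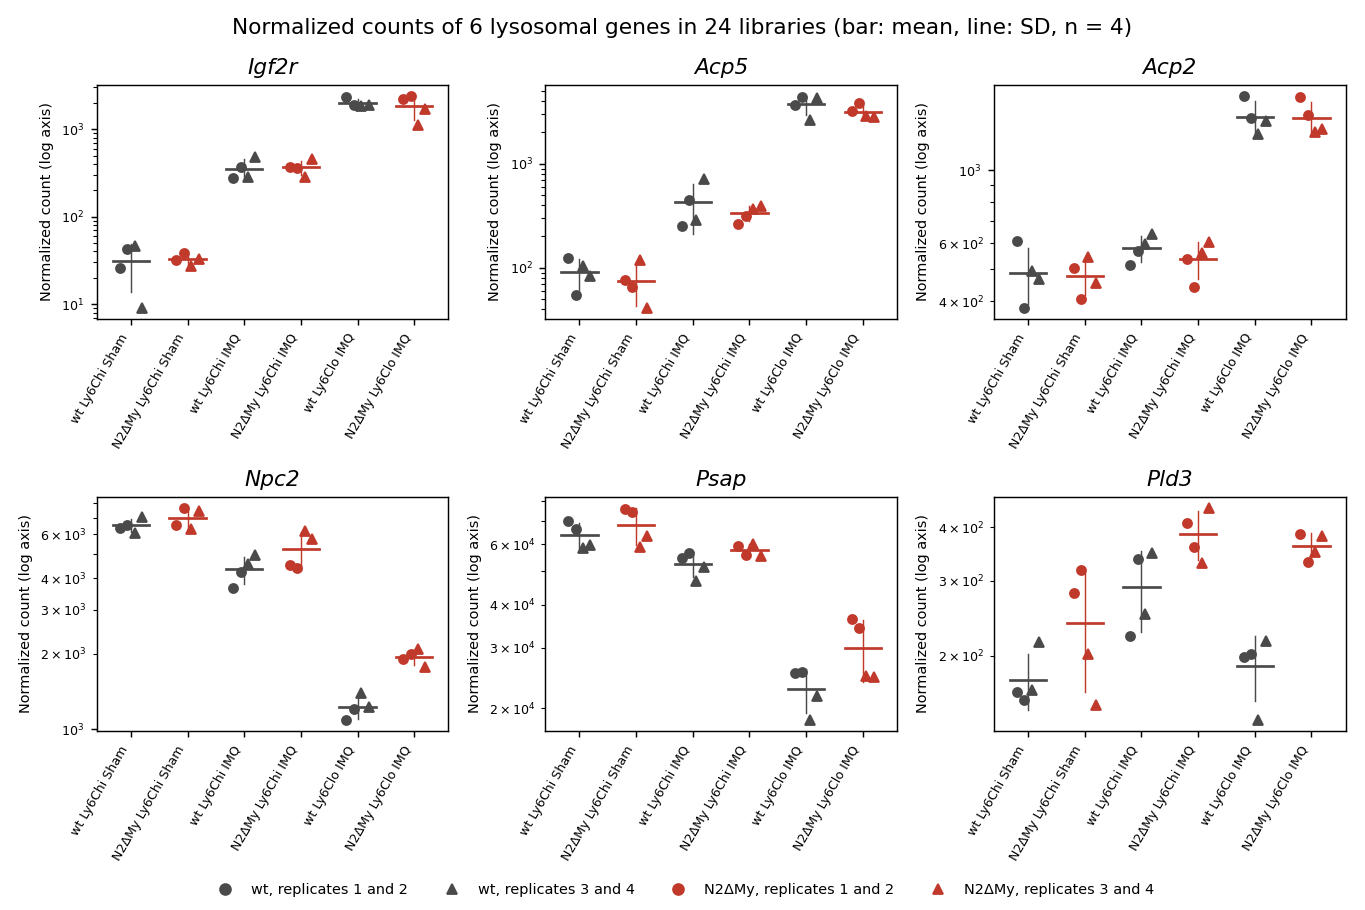
Normalized value (log axis) of Igf2r, Acp5, Acp2, Npc2, Psap and Pld3 in each of the 24 libraries by group, wt dark and N2ΔMy red, circles for replicates 1 and 2, triangles for replicates 3 and 4, with the mean as a bar and the SD as a line. Igf2r and Acp5 rise from Sham to IMQ and again to Ly6Clo cells, Acp2 is highest in Ly6Clo cells, and Pld3 is higher in N2ΔMy than in wt Ly6Clo cells.

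Gla stood at 84, 121, 121 and 88 in wt Sham cells and at 142, 184, 144 and 187 after IMQ (0.67 ± 0.20, adjusted p = 0.0417). In N2ΔMy mice Gla stood at 64, 109, 86 and 115 after Sham and at 157, 192, 171 and 174 after IMQ (0.92 ± 0.21, adjusted p = 0.0161). The groups did not overlap, but the wt call was lost without Sham replicate 1 or 4 or any one IMQ library (largest adjusted p 0.122), and that in N2ΔMy mice without IMQ replicate 2 (adjusted p = 0.0505). Pld3 stood at 164, 157, 166 and 215 in wt Sham cells and at 222, 338, 250 and 348 after IMQ (0.70 ± 0.18, adjusted p = 0.0251), and the call was lost without Sham replicate 1, 2 or 3 or IMQ replicate 2 or 4 (largest adjusted p 0.0832). In N2ΔMy mice it stood at 280, 317, 202 and 153 against 410, 360, 330 and 445, which missed the call (0.74, adjusted p = 0.0512) and passed it with the replicate number as a block (adjusted p = 0.0314). Ids (chrX:70343069-70365084, minus strand) stood at 1445, 1609, 1386 and 1228 in wt Sham cells and at 749, 914, 940 and 898 after IMQ (−0.69 ± 0.11, adjusted p = 0.00172). In N2ΔMy mice Ids stood at 1563, 1603, 1239 and 1373 against 1107, 912, 984 and 1009 (−0.52, adjusted p = 0.00825), without overlap and below the fold limit.

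Atp6v0d1, the V0 subunit d1 of the V-ATPase, had mean levels of 1122 ± 131 (SD, n = 4) after Sham and 1772 ± 259 after IMQ in wt mice (0.66 ± 0.12, adjusted p = 0.00412), and 0.51 (adjusted p = 0.0173) in N2ΔMy mice. The wt call was lost without Sham replicate 1 (0.59) or IMQ replicate 4 (0.56), below the fold limit. All 6 tested V-ATPase members had log2 fold changes above 0 in both genotypes, from 0.04 to 0.66 in wt mice, but only Atp6v0d1 was called, and in wt mice only. Galns was called in N2ΔMy mice (0.72 ± 0.18, adjusted p = 0.0228), where it rose from 606, 560, 760 and 805 to 957, 871, 1389 and 1321, and had 0.43 (adjusted p = 0.193) in wt mice. Its call was lost without N2ΔMy Sham replicate 1 or 2 or IMQ replicate 3 or 4 (largest adjusted p 0.0678). Lamp2 ranged from 2844 to 3337 in wt Sham cells and from 3855 to 4583 after IMQ, and passed the adjusted p in both genotypes below the fold limit (0.41 and 0.50, adjusted p = 0.0113 and 0.00322). Gusb (0.38 and 0.45), Ppt1 (0.40 and 0.54) and the peptidase Tpp1 (0.49 and 0.47) did so too. Npc2 stood at 6388, 6559, 6091 and 7049 in wt Sham cells and at 3667, 4242, 4547 and 4946 after IMQ, without overlap (−0.59, adjusted p = 0.00266). Its change in N2ΔMy mice was −0.43 (adjusted p = 0.0501). Tfeb had 0.07 and 0.00 (adjusted p = 0.737 and 0.994), Tfe3 −0.25 (adjusted p = 0.0401) and −0.17 (adjusted p = 0.241), and Mcoln1 −0.12 and −0.35 (adjusted p = 0.548 and 0.116).

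Of the 10 members with CACGTG in the window and the 29 other tested members with a window, 3 and 3 were called for IMQ in wt mice (9.49% of all tested genes) and 2 and 1 in N2ΔMy mice (8.7%). Between the subsets the calls were 2 and 11 in wt mice (24.6%) and 3 and 6 in N2ΔMy mice (17.4%), and for genotype in Ly6Clo cells 0 and 3 (4.78%). The share with the motif was thus higher in some comparisons and lower in others, and no difference was tested.

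The interaction of genotype and treatment called 0 of 47 members and 0% of all tested genes. At an unadjusted p under 0.05 it named Aga (0.76) and Sort1 (0.30), against 1.58% of all tested genes. Of the 88 further genes, 4 were called higher and 4 lower by IMQ in wt mice, against 4.43% and 5.07% of all tested genes, and 4 higher and 3 lower in N2ΔMy mice, against 4.15% and 4.55%, which is near the share of all genes. Cd9 (1.90, adjusted p = 0.0474), Smpdl3b (1.32, adjusted p = 0.000657) and the channel Tpcn1 (adjusted p = 0.00254) rose most in wt mice. The sialomucin Cd164 (−0.98, adjusted p = 0.00852), the carboxypeptidase Cpq (−0.96, adjusted p = 0.0119) and Slc29a3 (−0.73, adjusted p = 0.000903) fell most. In N2ΔMy mice Smpdl3b (1.12), Pla2g7 (adjusted p = 0.000368) and Tpcn1 (0.86) rose, and Cpq (−1.14), Cd164 (−0.84) and Slc29a3 (−0.64) fell.

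**Figure D4:**
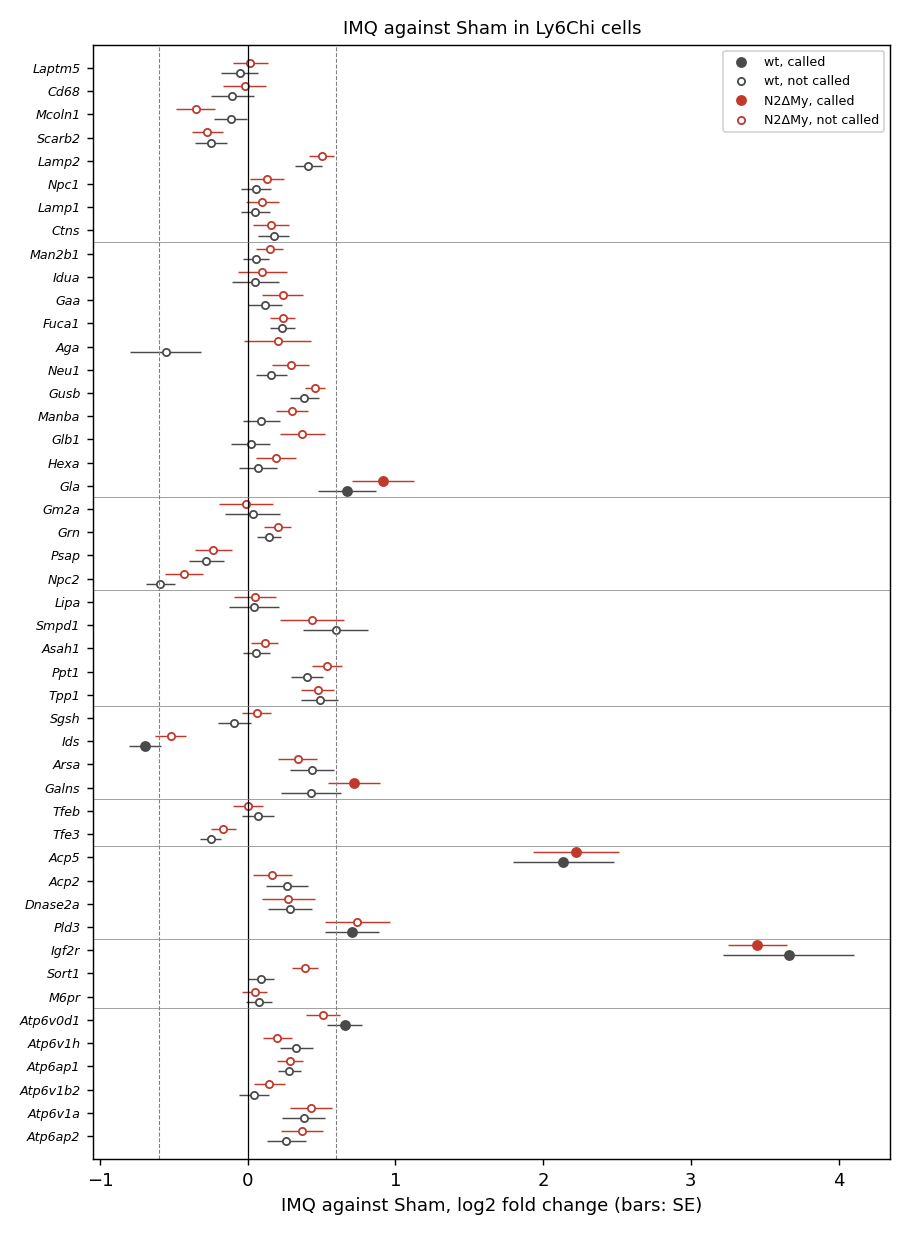
Log2 fold change of each tested member between IMQ and Sham in Ly6Chi cells of wt and N2ΔMy mice, on the log2(value + 1) scale, with standard errors as bars, filled points for called members and dashed lines at −0.6 and 0.6. Igf2r (3.66 and 3.45) and Acp5 (2.14 and 2.22) stand apart, and 37 and 39 of the 47 members lie above 0.

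The third comparison asks how N2ΔMy and wt cells differed. In Ly6Clo cells after IMQ, Pld3, Npc2 and Atp6ap2 were higher in N2ΔMy than in wt mice. These 3 of 47 members were called, all higher, against 4.78% of all tested genes, with 3.12% called higher and 1.67% lower. Replicates 3 and 4 alone called 0, against 180 of the 11230 tested genes. At any fold 4 members passed the adjusted p, all higher, against 6.41%. The groups did not overlap for 7 members, against 12.8% of all tested genes, and the members' median log2 fold change was 0.10, against −0.0035. The comparison shares the wt Ly6Clo libraries with the comparison of subsets in wt mice.

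Pld3 (chr7:27532000-27553218, minus strand) stood at 198, 202, 141 and 216 in wt and at 386, 331, 351 and 382 in N2ΔMy Ly6Clo cells. The lowest N2ΔMy library lay above the highest wt library, means differed 1.92-fold and the log2 fold change was 0.95 ± 0.16 (adjusted p = 0.00582). Npc2 stood at 1086, 1206, 1397 and 1222 in wt and at 1898, 1989, 2095 and 1767 in N2ΔMy Ly6Clo cells, also without overlap (0.66 ± 0.10, adjusted p = 0.00335). Atp6ap2 (chrX:12587801-12617049, plus strand) stood at 407, 367, 353 and 404 in wt and at 496, 696, 650 and 602 in N2ΔMy Ly6Clo cells, without overlap (0.66 ± 0.13, adjusted p = 0.0125), and lost the call without N2ΔMy Ly6Clo replicate 2 (0.60, just under the fold limit). Without N2ΔMy Ly6Clo replicate 3 all 3 calls were kept (0.96, 0.62 and 0.63). In replicates 1 and 2 alone the log2 fold changes of Pld3, Npc2 and Atp6ap2 were 0.83, 0.76 and 0.60, and in replicates 3 and 4 alone they were 1.06, 0.56 and 0.73. Hexa passed the adjusted p below the fold limit (0.35, adjusted p = 0.0236).

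Markers of other monocyte and macrophage states moved with genotype in Ly6Clo cells. The 6 Ly6Chi markers summed to 547 to 1912 in wt and to 7167 to 10095 in N2ΔMy Ly6Clo cells, against 57088 to 84977 in the Ly6Chi groups, and the 8 Ly6Clo markers (Nr4a1, Ace, Itgal, Treml4, Cd36, Pparg, Spn and Cx3cr1) to 132461 to 153717 in wt and to 81043 to 91730 in N2ΔMy cells. Of these 8, Cd36 and Cx3cr1 went the other way, with means of 911 and 2654 in wt and 2910 and 3786 in N2ΔMy Ly6Clo cells. The 8 macrophage markers summed to 5592 to 7396 in wt and to 12895 to 17253 in N2ΔMy Ly6Clo cells, with none of them at 0 in all 4 libraries of either group. The 4 dendritic cell markers summed to 80 to 485 (mean 203) in wt and to 205 to 1450 (mean 637) in N2ΔMy cells, with none at 0 in all 4 libraries of either group, and Flt3 among them stood at 65, 71, 325 and 35 in wt and at 251, 135, 850 and 381 in N2ΔMy cells. The part of these lists in the higher Pld3, Npc2 and Atp6ap2 was not tested. Beside these, the 3 genes had higher mean levels in wt Ly6Chi IMQ than in wt Ly6Clo cells, at 290, 4351 and 595 against 189, 1228 and 383. In N2ΔMy mice the means were 386, 5227 and 716 in Ly6Chi IMQ and 362.5, 1937 and 611 in Ly6Clo cells. Pld3 and Atp6ap2 thus had higher means in N2ΔMy Ly6Clo than in wt Ly6Chi IMQ cells, and Npc2 a lower one.

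Other members differed less between the genotypes in Ly6Clo cells. Igf2r had −0.15 (adjusted p = 0.781), Acp5 −0.22 (adjusted p = 0.52) and Acp2 −0.01 (adjusted p = 0.978), so no difference was detected at this spread. Tfeb had −0.33 without overlap (adjusted p = 0.102), Tfe3 0.34 (adjusted p = 0.186) and Mcoln1 −0.34 (adjusted p = 0.219). Lamp2 ranged from 2723 to 3767 in wt and from 3484 to 5691 in N2ΔMy cells (0.45, adjusted p = 0.126). Of the 88 further genes, 5 were called higher and 2 lower, against 3.12% and 1.67% of all tested genes. Among the higher were Slc37a2 (1.81, adjusted p = 0.0315), Mitf, a transcription factor of the TFEB family (1.12, adjusted p = 0.000701), and the acid amidase Naaa (0.79, adjusted p = 0.0176). Of the 2 called lower, Smpdl3b had −0.64 (adjusted p = 0.00808).

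In Ly6Chi cells no member was called between the genotypes, after IMQ (0 of 47, against 0.0267% of all tested genes) or after Sham (0 of 47, against 0.0178%). The authors describe the targeting of Notch2 in Ly6Chi monocytes as partial. The groups did not overlap for 4 members after IMQ, against 3.84% of all tested genes, and for 2 after Sham, against 3.15%. After IMQ, 42 of 47 members had a log2 fold change above 0, against 53.0% of all tested genes, with a median of 0.13 against 0.014. At an unadjusted p under 0.05 were 7 members after IMQ, against 6.05% of all tested genes, and 2 after Sham (Gusb and Atp6ap1), against 5.21%. The smallest adjusted p was 0.636 (Sort1) after IMQ and 0.921 (Gusb) after Sham. Pld3 had 0.43 (adjusted p = 0.772) after IMQ and 0.39 (adjusted p = 0.937) after Sham, Npc2 0.26 and 0.10, and Atp6ap2 0.26 and 0.16. The genotype difference was not shown to differ between Ly6Clo and Ly6Chi cells for Pld3, Npc2 or Atp6ap2 (interaction adjusted p = 0.563, 0.514 and 0.592).

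**Figure D5:**
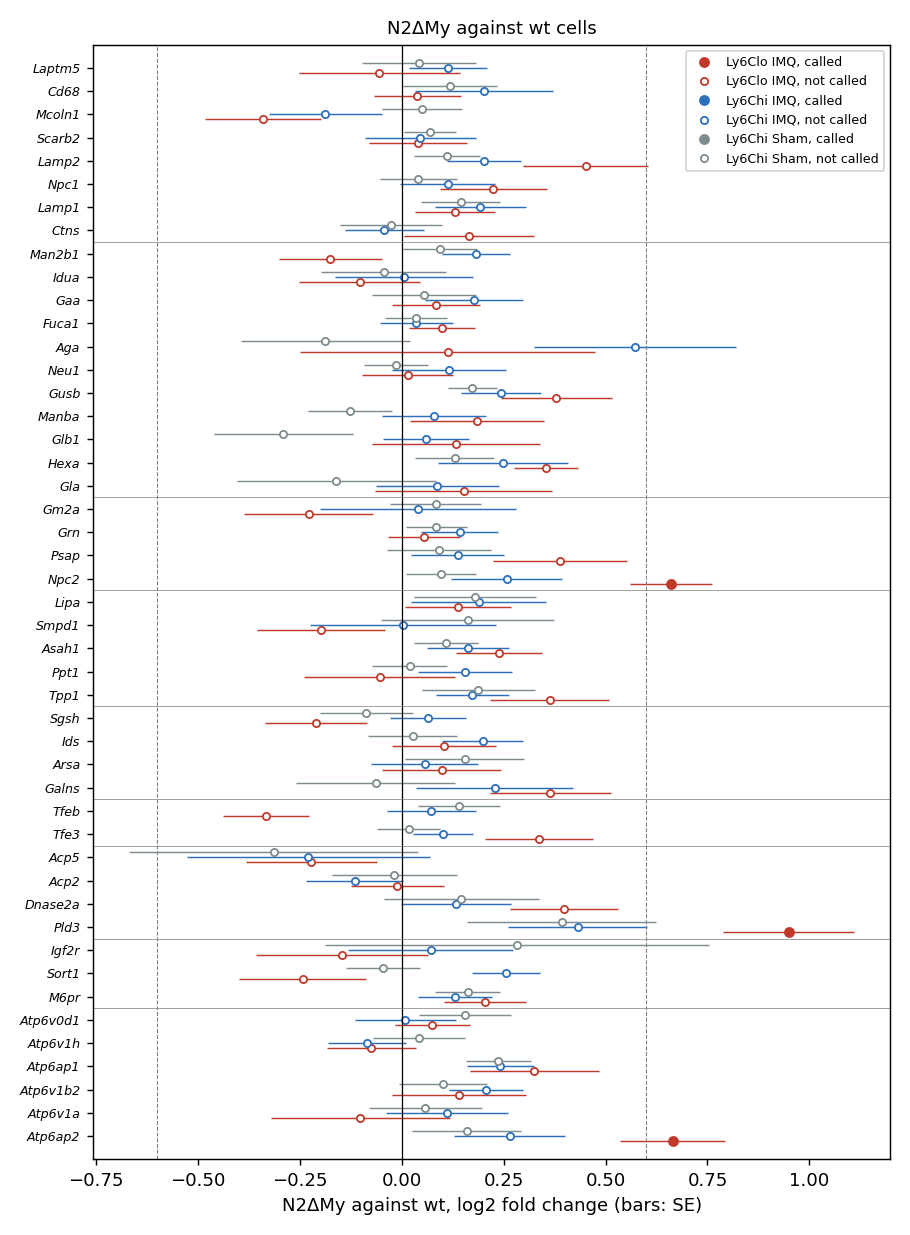
Log2 fold change of each tested member between N2ΔMy and wt cells in Ly6Clo cells after IMQ, Ly6Chi cells after IMQ and Ly6Chi cells after Sham, on the log2(value + 1) scale, with standard errors as bars, filled points for called members and dashed lines at −0.6 and 0.6. Pld3, Npc2 and Atp6ap2 are filled in Ly6Clo cells (0.95, 0.66 and 0.66), and no point is filled in Ly6Chi cells.

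Members also moved with the library series. Between replicates 3 and 4 and replicates 1 and 2, 14 of the 47 members had the same sign in all 6 groups (29.8%), against 32.5% of all tested genes. Smpd1, the acid sphingomyelinase (0.48 on the log2 scale), Gm2a (0.45) and Dnase2a, the lysosomal DNase (0.35), were higher in replicates 3 and 4, and Atp6v1a (−0.45) and Laptm5 (−0.36) were lower. Both library series are present in equal number in every group. Antisense genes cover over 20% of the exon bases of Dnase2a and Sgsh, but their highest values in any library were 45 (Mast1, over Dnase2a) and 6 (Card14, over Sgsh).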

How the data were processed

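Monocyte libraries were made by the authors with a stranded total RNA kit and sequenced as 75-base single reads. Per the submitters' processing notes and the methods, reads were trimmed (Trim Galore 0.4.4), aligned to GRCm38.p6 (STAR 2.5.3a) and normalized with DESeq2. The counting tool is not given in the sources used here. The deposited values are a score: normalized counts that the authors rounded to whole numbers, so that no count model was applied and raw depth was inferred from value steps.

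Genes whose value reached 50 in any library were tested with limma 3.58.1 (R 4.3.3, trend) on log2(value + 1), two-sided, between 2 groups of 4 libraries, with Benjamini-Hochberg adjustment over all 11230 genes. Interactions used 4 groups and the F-test all 6. The script was tested on simulated data. Values are given per library for the called members with the 5 largest changes in each direction between wt subsets or the 4 largest with IMQ, for members called by genotype, and for Tfeb, Tfe3, Mcoln1, Lamp1, Lamp2, Cd63, Cd68, Grn and Atp6v0d2, in places as ranges. Other members are named by fold change, and of the further lysosomal genes the 3 called with the largest rise and fall, except for results that are not reported here. The members and gene lists were chosen with earlier results of these data known. Groups and replicate numbers come from the labels. Same-numbered libraries deviated together (lowest correlation 0.16 over tested genes), so a block on the number was an alternative. Between subsets the mean correlation was 0.505 in wt and 0.416 in N2ΔMy mice, against 0.305 and 0.255 between different numbers of the same series. For genotype it was 0.456 against 0.307 in Ly6Clo cells, 0.519 against 0.439 in Ly6Chi IMQ cells and 0.423 against 0.287 in Ly6Chi Sham cells. The main tests did not use the number. For IMQ versus Sham the mean correlation was close to that between different numbers of the same library series (0.373 against 0.364 in wt, 0.350 against 0.362 in N2ΔMy mice), so there the numbers followed the series and no pairing was shown. Others were scaling, filter, pseudocount, trend, library series and leaving out each library. The labels and the methods on treatment name the control cream Sham, while the methods on RNA call the controls untreated.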

Additional observations from a re-analysis of the deposited data

Results flagged for a closer look

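The 21 genes given by library were checked for a single library far from the other 3 of its group (gap over range above Dixon's 95% critical value). This was met in 7 of 123 groups, and chance alone marks about 1 in 20 groups. Igf2r stood at 2316 in wt Ly6Clo replicate 1, above 1819 to 1894 in the others. Lamp1 stood at 11649 in wt Ly6Chi IMQ replicate 4, above 9532 to 9767, and Mcoln1 stood at 423 in the same library, below 514 to 532. Pld3 stood at 215 in wt Ly6Chi Sham replicate 4, above 157 to 166. Tfe3 stood at 1418 in wt Ly6Chi IMQ replicate 1, above 1292 to 1309. Atp6v0d2, below the level tested, stood at 6 in N2ΔMy Ly6Chi IMQ replicate 3 and at 7 in N2ΔMy Ly6Clo replicate 1, against at most 1 in the other libraries of each group.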

How the results depend on the processing

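Of the 37 called member results, none changed sign in 444 values under other settings and 296 with 1 library left out. The filters, the trend, the block, the library series and a single fit of all 24 libraries leave the fold change as it is. Those settings could not change a sign, and the calls were chosen for a log2 fold change of at least 0.6 in size. The call itself was kept in 402 of the 444 values and in 250 of the 296. The number of members called ranged, with 1 library left out, from 12 to 15 between wt subsets, from 6 to 10 between N2ΔMy subsets, from 3 to 6 for IMQ in wt mice, from 3 to 4 for IMQ in N2ΔMy mice, from 2 to 3 for genotype in Ly6Clo cells and from 27 to 30 in the F-test. It stayed at 0 for both genotype comparisons in Ly6Chi cells and both interactions. The lowest counts came without N2ΔMy Ly6Chi IMQ replicate 4 (6 between N2ΔMy subsets) and without wt Ly6Chi Sham replicate 1 (3 for IMQ in wt mice). Replicates 3 and 4 alone called 3 members for IMQ in wt mice, 7 for IMQ in N2ΔMy mice and 0 for genotype in Ly6Clo cells, against 592, 813 and 180 of all 11230 tested genes, with 2 libraries a group. With no filter on low values, 2 were called for IMQ in N2ΔMy mice, against 685 of the 28578 genes then in the adjustment. Under the replicate block, 14, 10, 6, 5, 3, 0 and 0 members were called in the 7 comparisons, 0 in both interactions and 40 in the F-test. Of all 11230 tested genes the block called 3199, 2302, 1331, 1111, 939, 54 and 3 in the same order, against 2760, 1953, 1066, 977, 537, 3 and 2 without it, 271 in the interaction of genotype and subset, against 116, and 6417 in the F-test, against 4826. Among the members, the only call between 2 groups that the block changed was that of Pld3 for IMQ in N2ΔMy mice, which it added. Among the 88 further lysosomal genes the block, which called more of all genes as given, called 27 between wt subsets, against 26 without it, 9 for genotype in Ly6Clo cells, against 7, and 4 in the interaction of genotype and subset, against 0.

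Calls near the fold limit or the adjusted p of 0.05 hung on single libraries. Between N2ΔMy subsets, Galns lost its call without Ly6Chi IMQ replicate 3 or 4 (nearest to 0, −0.51), Hexa without Ly6Chi IMQ replicate 3 or 4 or Ly6Clo replicate 1 or 4 (−0.53), Ppt1 without any of 5 libraries (−0.49) and Atp6v1a without any of 5 (−0.54). Between N2ΔMy subsets, Hexa (−0.60 and −0.59) and Ppt1 (−0.59 and −0.59) also fell just under the fold limit after scaling to an equal sum and after centring on the library median, as did Pld3 between wt subsets after centring (−0.58). For IMQ, Pld3 in wt mice lost its call without any of 5 libraries (0.61 at the lowest), Atp6v0d1 without Sham replicate 1 or IMQ replicate 4 (0.56) and Galns in N2ΔMy mice without any of 4 (0.61). Differences of Igf2r, Acp5, Acp2, Npc2 and Psap kept their call without each library in turn wherever they had one.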
